A study of Mus musculus with 4 samples.

Results

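Fgf signalling in the limb bud switches on a set of genes that limit it or carry out its response, and Meis binding was examined around 7 of these Fgf feedback genes, Spry1, Spry2, Spry4, Dusp6, Etv4, Etv5 and Ets2. A Meis peak was assigned to a gene by place alone, when its summit, the position of highest enrichment, lay in a window of the mouse genome (mm9) around that gene. The windows were 37.3 to 37.8 Mb of chromosome 3 for Spry1, 105.9 to 106.7 Mb of chromosome 14 for Spry2, 38.5 to 39.0 Mb of chromosome 18 for Spry4 and 98.4 to 99.0 Mb of chromosome 10 for Dusp6. Those of the nuclear factors were 101.5 to 101.8 Mb of chromosome 11 for Etv4, and 22.2 to 22.6 Mb and 95.7 to 96.2 Mb of chromosome 16 for Etv5 and Ets2. Together they span 3.60 Mb and held 63 of the 22906 summits listed in forelimbs (FLs) and 49 of the 17810 listed in hindlimbs (HLs), or 112 of 40716 in all. A peak with several summits was counted once, which left 55 of 21338 FL peaks and 47 of 16987 HL peaks.

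The chromatin came from wild-type C57BL/6 embryos at E10.5, with about 36 somites, without any transgene or treatment. Around 500 limb buds of each kind were fixed, and antibodies against Meis1 and Meis2 were used together, so the 2 proteins cannot be told apart. With a single ChIP library and a single input for FLs and for HLs, the values carry no replicate error, and no test of FLs against HLs was possible. Buds were taken whole, and binding in fewer cells cannot be told apart from weaker binding in each cell. The peak lists do not give the depth of the libraries, and the read totals that the study states were not used here. The lists hold no expression, so the limb identity of each library could not be checked against marker genes.

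Fgf ligands bind receptor tyrosine kinases and start a phosphorylation cascade that ends in the kinase ERK. Sprouty proteins, encoded by the Spry genes, dampen the signal between receptor and ERK, and Dusp6 is a phosphatase that removes the activating phosphates from ERK in the cytoplasm. Etv4 and Etv5 are related Ets transcription factors that carry the signal to target genes, and Ets2 is a further Ets factor that ERK phosphorylates. In the limb bud, Fgfs from the apical ectodermal ridge act on the mesenchyme beneath it, where Dusp6, Spry and Etv genes are used as readouts of the signal. Meis1 and Meis2 are homeodomain proteins of the TALE class and mark the proximal part of the bud.

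Meis peaks were found around 6 of the 7 genes in both limbs, and the window of Etv5 held none in either limb. Peaks were denser than in the genome at large, at 15.3 per Mb in FLs and 13.1 per Mb in HLs, against 8.11 and 6.46 per Mb over the chromosomes that the lists cover. That background takes in stretches far from any gene, and windows around other genes were not counted for comparison. Among the feedback loci the density was not even. The Etv4 window held 33.3 FL and 40.0 HL peaks per Mb, and the Ets2 window 32.0 and 28.0. The Dusp6 and Spry windows held 11.7 to 12.5 FL peaks and 8 to 10 HL peaks per Mb, and Etv5 held 0.

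The enrichment of a peak is given as its fold, the ratio of ChIP signal at the summit to the local background of the input. The lists reach down to weak peaks, with a p-value of the peak caller of up to about 0.022 in both limbs, so a site without a listed peak is one below that limit. Peaks with a q-value, the p-value as the peak caller corrects it for multiple testing, of at most 0.05 were therefore counted apart. Around the feedback genes 25 of 55 FL peaks passed (45.5%, 95% Wilson interval 33.0 to 58.5), against 17.4% of all FL peaks. In HLs 11 of 47 passed (23.4%, 13.6 to 37.2), against 10.1% of all HL peaks. These intervals cover counting error only, and the windows were proposed with the peaks known.

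Peaks of the feedback loci were also higher than usual in FLs, less so in HLs. Their median fold was 3.38 in FLs, where all peaks had 2.78, and 2.88 in HLs, where all peaks had 2.78 too. Of the FL peaks, 18 (32.7%) belonged to the 10% of the list with the highest folds, and of the HL peaks 9 (19.1%). The best placed was an HL peak at Spry1, which ranked 84 by fold in its list.

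**Figure D1:**
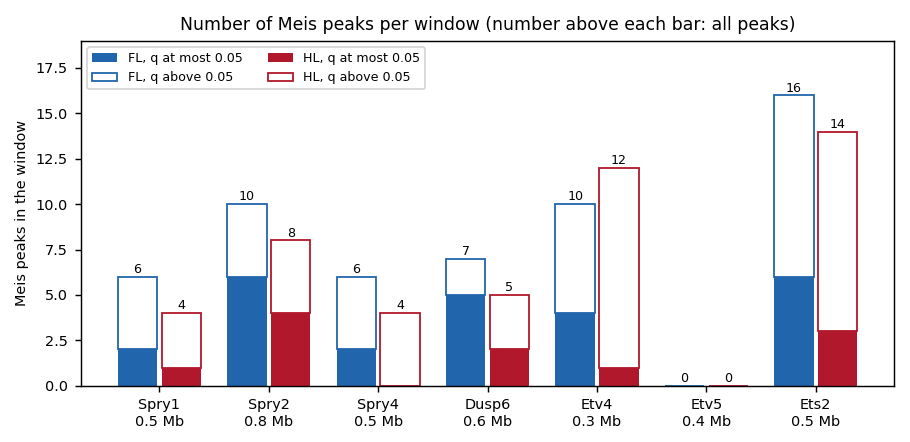
Number of Meis peaks in the window of each gene (bars, FL blue and HL red, 1 library per limb), with filled parts for peaks with q at most 0.05 and open parts for the others, and the window length under each name. Ets2 had the most FL peaks (16) and HL peaks (14), Etv5 had 0, and Spry4 had no HL peak with q at most 0.05.

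With 1 shared bp as the rule, peaks at the feedback loci overlapped between the limbs more often than peaks of the whole lists. An overlapping HL peak was listed for 22 of 55 FL peaks (40.0%, 28.1 to 53.2), against 22.6% of all FL peaks. Conversely, 23 of 47 HL peaks overlapped an FL peak (48.9%, 35.3 to 62.8), against 29.0% of all. The gap was narrower when at least 0.5 of both peaks had to be shared, with 23.6% of FL peaks (14.4 to 36.3) against 14.8% of all, and 27.7% of HL peaks (16.9 to 41.8) against 18.6%. Both of these intervals include the share of the whole list. Strong peaks overlap more often everywhere. Of the 25 FL peaks with q at most 0.05, 18 had an HL partner (72.0%, 52.4 to 85.7), close to the 67.0% of all such FL peaks. All 11 HL peaks with q at most 0.05 had an FL partner, where the share in the whole list was 89.3%.

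Spry1 had a pair of strong sites that ranked in opposite order in the limbs. At chr3:37455803-37456130 the FL fold was 8.36 (q = 9.93e-12), and the HL peak with its summit on the same base had a fold of 3.48 (q = 0.169). At chr3:37557113-37557502, 101 kb away, the FL fold was 4.93 (q = 9.18e-06) and the HL fold 9.20 (q = 1.29e-14), with summits 15 bp apart. The FL to HL ratio was thus 2.40 at the former site, while HL exceeded FL 1.86-fold at the latter. The other Spry1 peaks were weak in both limbs, and the highest of them was an HL peak at chr3:37615553-37615876 with a fold of 3.34 (q = 1).

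The promoter of Spry1 is shown because it alone, among those of the feedback genes at hand, held the core Meis motif. The sequence runs from 250 bases before to 50 after the start, from RefSeq on build GRCm38.p6, chr3:37639697-37639996, plus strand. Its coordinates are not those of mm9 and were not set against the peaks. Capitals mark TGACAG, which occurs at 2 places, with the first base 235 and 221 bp upstream of the start. On either strand, TGACAG is found in 19.2% of 32851 mouse promoters of that length, and a match is a description, not a binding site.
Spry1: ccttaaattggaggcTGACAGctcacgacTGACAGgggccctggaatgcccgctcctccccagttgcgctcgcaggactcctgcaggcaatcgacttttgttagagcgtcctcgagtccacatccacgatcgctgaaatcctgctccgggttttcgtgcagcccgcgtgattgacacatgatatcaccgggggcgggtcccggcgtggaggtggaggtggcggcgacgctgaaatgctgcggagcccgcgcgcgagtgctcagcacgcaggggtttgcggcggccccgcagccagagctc

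Spry2 had the most HL peaks with q at most 0.05 of any of the loci, 4, and each coincided with an FL peak that passed too. The highest FL fold lay at chr14:106320139-106320499, with 7.01 (q = 2.34e-10) in FLs and 4.90 (q = 0.00272) in HLs. At chr14:105971244-105971521 the folds were 6.56 in FLs and 4.17 in HLs. The remaining shared sites differed little between the limbs. Folds were 6.06 in FLs and 6.03 in HLs at chr14:106658762-106659513, a broad region with 2 summits in each limb. Its highest FL summit and highest HL summit were 233 bp apart, the widest such gap among the shared pairs of the feedback loci. At chr14:105983995-105984369 the folds were 3.84 and 4.19.

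A further pair of Spry2 peaks with q at most 0.05 was listed in FLs alone. That at chr14:106131641-106131863 reached 5.23-fold (q = 5.85e-05), and HLs had nothing listed at the site. The other, at chr14:105971614-105972154, held 3 summits, reached a fold of 3.91 (q = 0.0260) and lay next to a shared site, with the summits 226 bp apart. The 6 FL sites thus spread over the window, with gaps of up to 339 kb between neighbouring summits.

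At Spry4 the strongest peaks were those of FLs. The leading site, chr18:38643229-38643479, had an FL fold of 6.45 (q = 1.43e-10) and an HL fold of 3.04 (q = 0.514), a ratio of 2.12. At chr18:38925095-38925283 an FL peak with a fold of 5.09 (q = 5.85e-05) had no HL counterpart. None of the 4 HL peaks in the window passed q at most 0.05, which sets Spry4 apart little, since 10.1% of all HL peaks passed.

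Across the Sprouty genes, 10 of 22 FL peaks (45.5%, 26.9 to 65.3) and 5 of 16 HL peaks (31.2%, 14.2 to 55.6) passed q at most 0.05. Both shares were above those of the whole lists, 17.4% and 10.1%, of which the HL share is also the lower. The reason for the lower HL count was not tested. The HL peaks that passed were 4 at Spry2 and 1 at Spry1.

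Dusp6 had strong FL binding on both sides of the gene, and at the 3 of these 5 sites that HLs shared the HL fold was lower. The highest fold, 8.07 (q = 1.49e-11), lay at chr10:98429325-98429559, 296 kb upstream of the Dusp6 start, where the HL fold was 3.12 (q = 1). The ratio of 2.59 was the largest of all shared pairs at the feedback loci. This site is nearer to another gene than to Dusp6, at 51.7 kb from the start of Atp2b1, which encodes a calcium pump of the plasma membrane.

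Closer to Dusp6, a pair of sites downstream of the gene was bound in both limbs. At chr10:98761448-98761935, 35.9 kb downstream of the start, the fold was 7.50 (q = 1.18e-10) in FLs and 4.29 (q = 0.000269) in HLs. At chr10:98764796-98764973, 39.0 kb downstream, it was 5.86 (q = 3.95e-07) and 3.84 (q = 0.00121). These were the only HL peaks at Dusp6 with q at most 0.05, and the sites lay 3.16 kb apart by their FL summits and 3.19 kb by their HL summits. Farther downstream, FLs alone had peaks at chr10:98822310-98822554, with a fold of 3.67 (q = 0.0440), and at chr10:98853542-98853861, with 5.18 (q = 0.000536). Both are nearer to the start of B530045E10Rik, at 60.8 and 29.5 kb, than to that of Dusp6, at 96.5 and 128 kb. HLs alone had weak peaks about 90.9 and 90.6 kb upstream of Dusp6, with folds of 2.66 and 3.12 (q = 1 for both).

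At the Dusp6 start itself binding was weak. An FL peak at chr10:98726252-98726475 reached 2.10-fold (q = 1), its summit being 0.497 kb into the gene, and 96.8% of the FL list had a higher fold. HLs had no listed peak there. Because of this peak the promoter of Dusp6 is shown, though the peak, in mm9, was not placed on it. It comes from RefSeq on GRCm38.p6, chr10:99262981-99263280, plus strand, with the start after base 250. It holds none of the motifs searched, so nothing in it is in capitals.
Dusp6: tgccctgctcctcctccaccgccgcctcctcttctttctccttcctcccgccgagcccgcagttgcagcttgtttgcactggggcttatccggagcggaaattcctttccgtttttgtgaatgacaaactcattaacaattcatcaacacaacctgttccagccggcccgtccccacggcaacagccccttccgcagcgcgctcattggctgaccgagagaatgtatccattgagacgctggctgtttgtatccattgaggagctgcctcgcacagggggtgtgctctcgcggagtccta

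**Figure D2:**
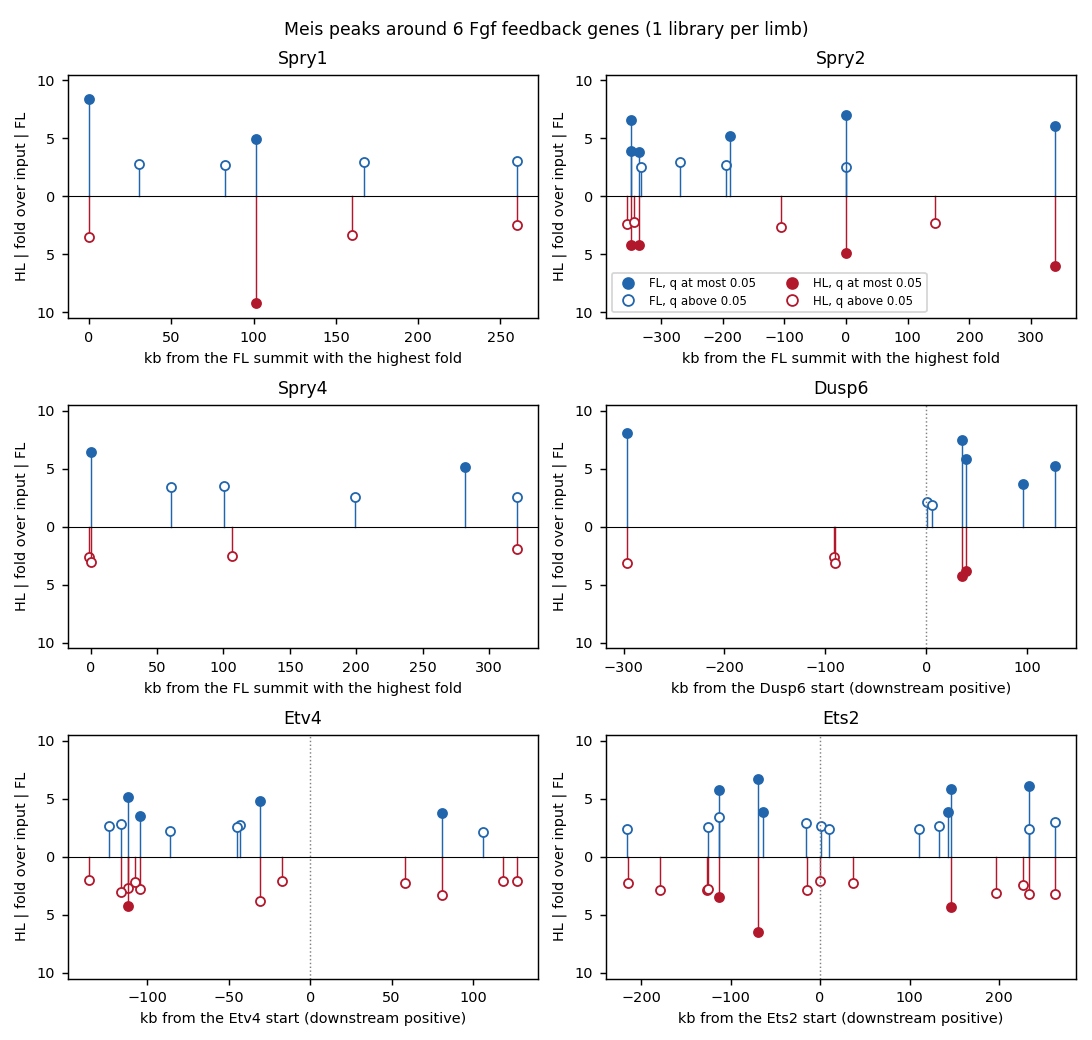
Fold over input of every Meis peak at the 6 loci with peaks (FL upward in blue, HL downward in red, filled for q at most 0.05), by its distance in kb from the gene start (dotted line) or, where no start in mm9 was at hand, from the FL summit with the highest fold. The tall FL sites of Spry1, Spry4 and Dusp6 stand over short HL ones, Spry1 also shows the reverse, and no filled point lies within 5 kb of the starts of Dusp6, Etv4 and Ets2.

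Among the nuclear factors, Etv4 had many peaks and low folds. Its window held 10 FL and 12 HL peaks, of which 4 and 1 passed q at most 0.05. The best site that was nearer to Etv4 than to another placed start was chr11:101677119-101677441, 30.6 kb upstream, with a fold of 4.83 (q = 0.000321) in FLs and 3.80 (q = 0.279) in HLs. A weaker one at chr11:101565631-101565800, 81.0 kb downstream, had folds of 3.79 (q = 0.0289) and 3.27 (q = 1).

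The highest folds of the Etv4 window belonged to the surroundings of a different gene. At chr11:101758246-101758541 the fold was 5.18 (q = 1.33e-06) in FLs and 4.26 (q = 0.00470) in HLs. This site lies 112 kb from the Etv4 start but 2.73 kb from that of Meox1, a homeobox gene of the somites. The fourth FL peak with q at most 0.05, chr11:101751127-101751318, with folds of 3.51 and 2.81 (q = 0.000758 and 0.506), lies 4.46 kb from Meox1. Peaks were assigned by window, and the gene that a site acts on was not tested.

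Etv5, the close relative of Etv4, had no Meis peak within its 0.400 Mb window. The nearest peaks on either side were weak. In FLs they lay 24.7 kb below the window, with a fold of 2.80 (q = 1), and 99.3 kb above it, with 2.10 (q = 1). In HLs they lay 38.2 kb below, with 2.59, and 508 kb above, with 2.33 (q = 1 for both). The pair of Etv genes thus differed as far as the lists reach, since Etv4 had peaks in both limbs and Etv5 in neither. The whole lists hold 8.11 FL and 6.46 HL peaks per Mb, and at that density a window of 0.400 Mb would hold few peaks.

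Ets2 had the most peaks of all the loci, and its leading site was nearly equal in the limbs. At chr16:95854421-95854790, 69.1 kb upstream of the Ets2 start, the fold was 6.72 (q = 2.09e-09) in FLs and 6.47 (q = 1.05e-09) in HLs. The other strong sites had higher folds in FLs. The FL region at chr16:96069748-96070574 was the longest of the feedback loci, at 827 bp. It lay 147 kb downstream of the Ets2 start and 142 kb from that of Psmg1. Its folds were 5.86 (q = 5.53e-08) in FLs and 4.33 (q = 0.000395) in HLs. At chr16:95810333-95810766, 113 kb upstream and 58.6 kb from the start of Erg, itself an Ets factor, the folds were 5.76 (q = 2.54e-05) and 3.49 (q = 0.0175).

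The site at chr16:96157098-96157560, 234 kb downstream of Ets2, had the largest FL to HL ratio of this locus, 1.89. Its folds were 6.14 (q = 1.44e-07) in FLs and 3.25 (q = 0.0638) in HLs, and it lay 55.3 kb from the start of Psmg1, which encodes a proteasome assembly chaperone. Peaks in FLs alone at chr16:95859438-95859750 and chr16:96066280-96066691 both had a fold of 3.82 (q = 0.0468 and 0.0440). Each of them lay beside a shared strong site, 5.05 and 3.71 kb from it by their summits.

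Ets2 also had a peak over its start, though a weak one. In HLs, chr16:95923680-95923837 had a fold of 2.13 (q = 1) with the summit 0.0930 kb downstream of the start. In FLs the nearest peak, chr16:95924445-95924585, had its summit 0.832 kb downstream and a fold of 2.66 (q = 1). Because of these peaks the promoter of Ets2 is given, from RefSeq on GRCm38.p6, chr16:95702157-95702456, plus strand, with no capitals because no motif searched was in it. Whether its start is the one used in mm9 was not tested, so the peaks were not placed on this sequence.
Ets2: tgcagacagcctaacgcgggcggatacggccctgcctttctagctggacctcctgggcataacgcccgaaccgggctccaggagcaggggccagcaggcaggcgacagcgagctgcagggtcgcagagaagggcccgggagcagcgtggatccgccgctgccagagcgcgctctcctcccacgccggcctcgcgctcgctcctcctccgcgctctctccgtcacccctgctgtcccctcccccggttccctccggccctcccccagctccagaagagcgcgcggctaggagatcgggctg

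Promoters were at hand for 5 of the 7 genes, in 6 entries, with Etv4 and Spry4 missing. Besides TGACAG, the search took TGATTTAT and TGATTGAT, bound by Hox with Pbx, AGGTGTGA, bound by T-box factors, and ACCGGAAGT, bound by Ets factors, each on both strands. These occur in 0.977%, 0.746%, 1.28% and 1.10% of all promoters of the same length, and none of them was in a promoter of Spry1, Spry2, Dusp6, Etv5 or Ets2. No match says only that these letters are not in these 300 bases.

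The distance to the start could be given for the 3 feedback genes placed in mm9, Dusp6, Etv4 and Ets2. Within 5 kb of these starts there were 2 FL peaks and 1 HL peak, none with q at most 0.05. Of the 1987 placed genes, 7% had such a peak that close in FLs and 3.77% in HLs, so 0 of 3 says little about these genes. Within 100 kb there were 15 FL peaks, 7 of them with q at most 0.05, and 12 HL peaks, 3 of them with q at most 0.05. The other 8 FL and 3 HL peaks of these windows that passed were farther away. Over the whole lists, 17.4% of FL and 10.1% of HL peaks passed. Dusp6, Etv4 and Ets2 each had such an FL peak within 100 kb, against 47.1% of the placed genes. Dusp6 and Ets2 had such an HL peak, against 28.5%. With 3 genes, in windows proposed with the peaks known, these shares say little either.

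Neighbouring peaks occurred about as often as in the whole lists. Another FL peak lay within 5 kb of 18 of 55 FL peaks (32.7%, 21.8 to 45.9), against 31.8% of all FL peaks. In HLs the count was 15 of 47 (31.9%, 20.4 to 46.2), against 27.9%. The sites were somewhat longer than usual, with a median of 192 bp in FLs and 147 bp in HLs, where all peaks had 166 and 132 bp. Several summits were found in 6 FL peaks (10.9%, 5.10 to 21.8), against 6.14% of all, and in 2 HL peaks (4.26%, 1.17 to 14.2), against 4.15%. Both shares have intervals that include those of the whole lists.

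To compare the strength of binding in the limbs, every FL peak with HL overlap was set against its HL partner, the highest where there were several. FLs had the higher fold in 18 of the 22 pairs (81.8%, 61.5 to 92.7) and HLs in 4, where 62.1% of all pairs had the higher fold in FLs. The median log2 ratio of FL to HL fold was 0.36 (95% interval of the median 0.05 to 0.72), and over all 4813 shared pairs it was 0.17 (0.15 to 0.19), a shift towards FLs that the whole data set carries. The feedback loci lay above that median, but their interval includes it.

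Single sites differed in both directions. Log2 ratios ran from -0.90 at the Spry1 site of higher HL fold to 1.37 at the far upstream site of Dusp6, within the -2.52 to 2.73 of all pairs. The FL fold was at least 1.5 times the HL fold in 8 pairs of 22 (36.4%, 19.7 to 57.0), where 22.2% of all pairs had such a ratio. They comprised 3 pairs at Dusp6, 2 at Ets2 and 1 each at Spry1, Spry2 and Spry4. In the other direction, HL reached 1.5 times FL in 1 pair, at Spry1 (4.55%, 0.807 to 21.8), against 7.65% of all pairs. No pair at Etv4 reached that ratio in either direction.

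Shared sites mostly had their highest FL and HL summits close together. The median distance between these summits was 25 bp, with 233 bp as the largest, and over all pairs the median was 30 bp. In 18 of 22 pairs (81.8%) they lay within 50 bp, against 67.2% of all pairs, and no interval was computed for that share.

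Strong binding in both limbs was more frequent among these pairs than among all pairs. In 11 of the 22 pairs both peaks had q at most 0.05 (50.0%, 30.7 to 69.3), against 24.9% of all pairs. Their median log2 ratio was 0.44, where the 1200 such pairs of the whole lists had 0.16. No interval was computed for this median of 11 pairs. FLs had the higher fold in 9 of the 11 (81.8%, 52.3 to 94.9), against 61.7%, which that interval includes. Pairs in which only the FL peak passed were about as frequent as in the whole lists, and the few counts set no firm limit on the HL side. The FL peak alone passed in 7 pairs (31.8%, 16.4 to 52.7), close to the 26.9% of all pairs. The HL peak alone passed in 0 pairs, against 7.54% of all, and the interval of that share reaches 14.9%. In 4 pairs neither peak passed (18.2%, 7.31 to 38.5), against 40.7% of all. Each of the 11 HL peaks with q at most 0.05 at these loci had an FL partner that passed too, which held for 70.0% of all such HL peaks (interval of the members' share 74.1 to 100%).

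A site picked as the leading one in a limb favours that limb, so the choice was made both ways. The FL site with the highest fold was shared at 6 of 6 genes and was higher in FLs at each of them (61.0 to 100% for both). Among the leading FL peaks within 100 kb of the placed genes, 55.4% were shared, and 75.3% of those were higher in FLs. The windows of the 6 feedback genes, at 0.3 to 0.8 Mb, cover more sequence than 100 kb on each side of a start. The shares of the placed genes, here and for HLs, thus come from a narrower search and are not a like background. The HL site with the highest fold was shared at 6 of 6 genes as well, against 58.9%. It was higher in HLs at 1, Spry1 (16.7%, 3.01 to 56.4), against 43.6%, a share that the interval includes. At Spry4, Etv4 and Ets2 both choices pointed to the same site. At Spry1, Spry2 and Dusp6 they pointed to different ones.

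**Figure D3:**
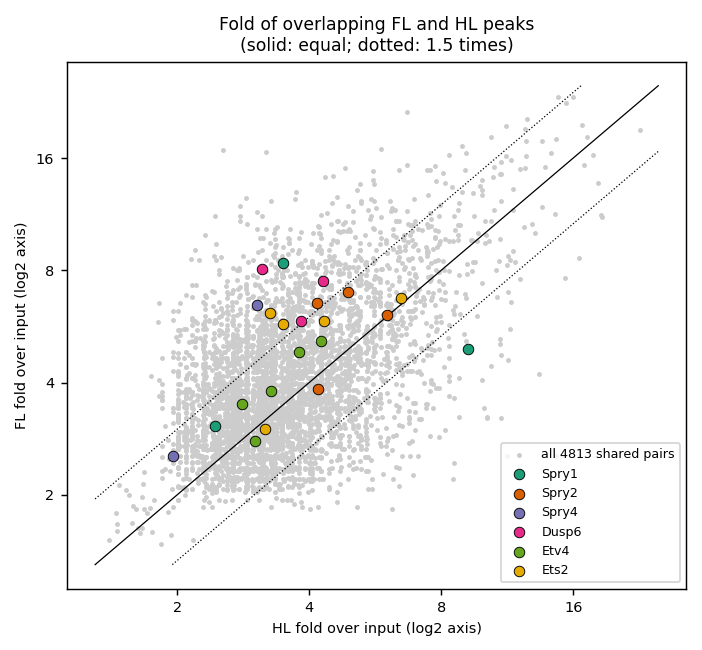
Fold over input of each shared Meis site in HLs (x axis, log2 scale) and FLs (y axis, log2 scale), with all 4813 pairs in grey and the 22 pairs at the feedback loci in colour by gene. Most coloured points lie above the solid line of equal folds, 8 lie beyond the upper dotted line of a 1.5-fold ratio, and 1 Spry1 point lies beyond the lower line.

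The feedback genes are a part of a longer pathway, for which 45 further genes were listed by role. A start in mm9 could be placed for 15 of them, and each of these has a shared Meis region assigned to it by the authors, so they are not a neutral sample of the pathway. With a window of 100 kb on each side of the start, 8 of 15 had an FL peak with q at most 0.05 (53.3%, 30.1 to 75.2), against 47.1% of all 1987 genes placed in the same way. In HLs 4 of 15 had one (26.7%, 10.9 to 52.0), against 28.5%. The pathway genes were thus close to the other placed genes. The 4 with an HL peak were all among the 8 with an FL peak, as were 86.6% of all placed genes with such an HL peak.

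Of the ligands, Fgf10, the mesenchymal Fgf that sustains limb outgrowth, had the highest folds of the pathway. They were 13.1 in FLs (q = 4.47e-26) and 9.92 in HLs (q = 2.89e-18), about 7.26 and 7.21 kb from its start. Fgf9, an Fgf of the apical ridge, had an FL fold of 4.47 (q = 0.00355) and no HL peak within 100 kb. The receptors Fgfr1 and Fgfr2 had peaks in both limbs, none of which passed q at most 0.05.

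Of the 5 other genes listed with the feedback inhibitors that could be placed, 3 had their higher top fold in HLs, Spred2, Dusp5 and Dusp7, the last with its FL and HL peaks at different sites. Spred2, a Sprouty-related protein that restrains Raf, had folds of 5.39 (q = 3.74e-06) in FLs and 9.03 (q = 6.21e-14) in HLs, both 87.1 kb from its start. Dusp5, a nuclear ERK phosphatase, had 4.90 (q = 0.000554) and 6.20 (q = 3.61e-07), both 4.12 kb from its start. In Dusp7, whose product also acts on ERK, no peak passed q at most 0.05. Spred1 went the other way, with 4.65 (q = 0.00355) in FLs and 3.09 (q = 1) in HLs. The fifth, Flrt3, is a membrane protein induced by Fgf that can also promote the signal, and none of its peaks passed q at most 0.05.

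Etv1, the third gene of the Etv4 and Etv5 subfamily, had an FL peak with a fold of 7.09 (q = 9.18e-10), 63.9 kb from its start, while its best HL peak reached 3.57-fold (q = 0.386) at another site, 13.7 kb from that start. Of the enzymes that make heparan sulfate, the sugar chain that Fgfs need to bind their receptors, Ext1 had folds of 5.89 (q = 9.78e-06) in FLs and 3.29 (q = 0.725) in HLs. Its partner Ext2 had 4.56 (q = 0.00434) and 5.03 (q = 0.000121). For both enzymes the FL and HL values come from different sites, 50.3 kb apart at Ext1 and 112 kb at Ext2, so they do not compare the limbs at 1 site. Of the 11 pathway genes with a peak in both limbs, 6 had overlapping top peaks (54.5%, 28.0 to 78.7). Among all 1513 placed genes with peaks in both limbs the share was 45.9%. The higher fold was in FLs for 3 of the 6 (Fgf10, Spred1 and Flrt3), against 68.0%, and in HLs for 3 (Fgfr1, Spred2 and Dusp5). With so few genes the interval, 18.8 to 81.2%, includes the 68.0% of all placed genes with overlapping top peaks.

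**Figure D4:**
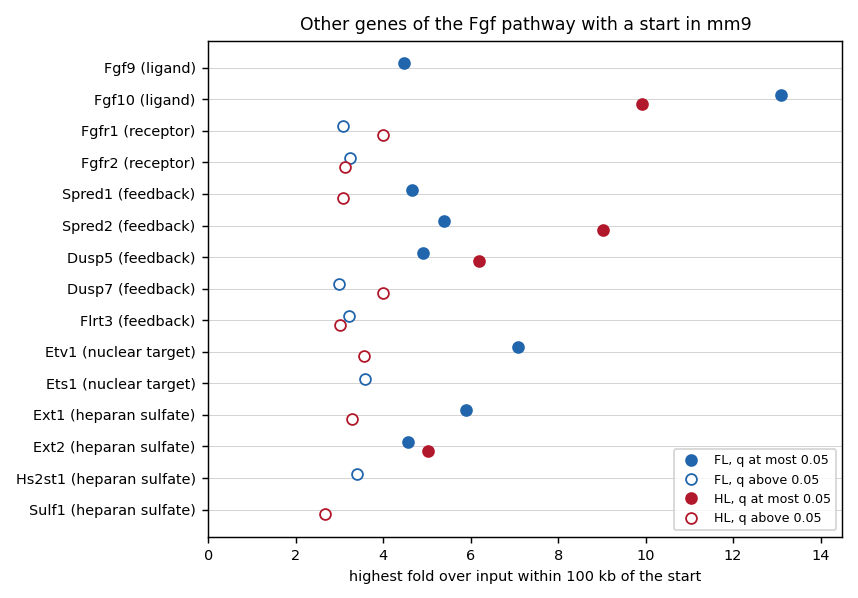
Highest fold over input of a Meis peak within 100 kb of the start of each of the 15 other Fgf pathway genes placed in mm9 (FL blue, HL red, filled for q at most 0.05, no point where no peak was listed). Fgf10 stands apart in both limbs, Spred2 and Dusp5 are higher in HLs at the same site, and Etv1 and Ext1 are higher in FLs but with FL and HL points from different sites.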

How the data were processed

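Reads were aligned by the authors to mm9 with BWA, and peaks were called with MACS2 over the limb's own input, with summits called separately. The deposited fold is the authors' ratio of ChIP to local input background at a summit. The deposited −log10 p-values and −log10 q-values are those of the authors' peak caller. The deposited score equals the −log10 p times 10, truncated by the authors' caller, at nearly every summit, and the authors' files place each summit by its distance in bp from the peak start.

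Summits listed with identical coordinates were merged into 1 peak, keeping the best fold, p and q. Peaks sharing at least 1 bp were taken as overlapping. Shares have 95% Wilson intervals. Named were, at each gene, the leading peak of each limb, the peaks with q at most 0.05 (at most 6, by fold) and the most unequal shared peaks, and of the pathway list the genes with such a peak within 100 kb. Weak peaks, pathway genes without such a peak and neighbouring genes were chosen after their values were seen. The members, windows and lists were chosen with earlier results of these data known.

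Starts of 1987 genes were derived in mm9 from region-to-gene distances tabulated by the authors (1994 regions used, many with several genes), with strands from GENCODE M21. Of 740 genes with several distances, 735 gave 1 start within 2 bp, and the others were not used. No coordinate was converted between builds, so exons and introns were not assigned and peak sequences were not read. Alternatives changed the p, q and fold cutoffs, the windows, the overlap required, the list lengths and the choice of pairs. Overlaps and starts were tested on simulated data. The software was Python 3.11.15 (pandas 2.3.3, numpy 2.4.6, matplotlib 3.10.9 and scipy 1.17.1).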

Additional observations from a re-analysis of the deposited data

How the results depend on the processing

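There is 1 library per limb, and the reads of a library limit which sites pass a cutoff. The lists do not give them, and the cause of the shifts below was not tested. No paired analysis was possible because each limb gave 1 ChIP library and no result comes from a test.

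Counts at the 7 loci depended on the cutoff and the windows. With p at most 0.0005, FL peaks went from 55 to 31 and HL peaks from 47 to 23. In the whole lists, 6773 of 21338 FL peaks and 6291 of 16987 HL peaks met that cutoff. In windows of 0.5 times the width there were 30 FL and 21 HL peaks, of which 13 and 6 had q at most 0.05 (25 and 11 in the full windows). A fold of at least 5 besides that q left 16 FL and 3 HL peaks. With p at most 1e-05 in its place there were 25 and 12.

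The overlap fell to 23.6% of FL and 27.7% of HL peaks when at least 0.5 of both peaks had to be shared, and came to 72.0% and 100% for peaks with q at most 0.05. Summits within 100 bp or lists of equal length gave 40.0 to 44.7% in FLs and 46.8% in HLs. The median log2 FL to HL ratio kept its sign, at 0.19 to 0.44 over its alternatives, the lowest after dividing by the median of all shared pairs. Pathway genes with an FL peak of q at most 0.05 numbered 5 within 50 kb (29.2% of all placed genes), 8 within 100 kb and 11 within 200 kb (66.6%), and with an HL peak 3 (16.9%), 4 and 6 (44.7%). All 12 leading folds were the same when chosen by the lowest p.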

Other observations

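A strong shared Meis site lay just beyond the Spry1 window. Its FL peak, chr3:37805814-37806153, reached 6.82-fold (q = 2.5e-09) and its HL partner 7.02-fold (q = 1.95e-08), 6.00 and 5.96 kb above the upper edge of the window. Inside the window, the peak nearest to that edge, chr3:37715809-37715965, reached 3.06-fold, and its HL partner 2.43-fold (q = 1 for both). A window wider by 10 kb would thus have added to Spry1 a site of nearly equal fold in the limbs.

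Beyond the Dusp6 window, the next HL peak, chr10:99274857-99275135, lay 275 kb above the edge and had a fold of 6.38 (q = 9.72e-08), higher than any HL peak inside. The other peaks next to the windows had q-values above 0.05 in both limbs, with folds of 2.08 to 3.46.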
